A study of Mus musculus with 8 samples.

Results

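Primary cilia are taken apart when resting cells return to the cell cycle, and 7 genes whose proteins act in that step are described here across serum-starved and growing kidney epithelial cells. They are the kinases Aurka, Plk1 and Nek2, the scaffold Nedd9, the deacetylase Hdac6, the dynein adaptor Nde1 and the keratin-binding protein Tchp, known as trichoplein. They were defined by name and not by a cut on measured values, though with earlier results of these data known. Their probes are the non-control probes that carry one of these names on the array or through a current symbol. All 7 were found, among 27597 genes on the array, with 8 probes in all because Nedd9 has 2.

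The cells were IMCD3, an established mouse line that derives from the collecting duct of the kidney's inner medulla, and the series belongs to a search for effectors of FOXJ1, a transcription factor of motile cilia. Unstarved cells grew in medium with 10% fetal calf serum, were diluted 1:10 on the day before collection and had not become confluent. Starved cells spent 48 h in the same medium without serum, which is used to make them form cilia, so that the groups differ in both serum and cell density. No cell of either group carries a transgene or a deletion by the labels, and each group came from 2 dishes of this 1 line. The 8 samples, 4 of each group, were measured as 4 Agilent 2-colour hybridisations, each of 1 starved against 1 unstarved sample on a common slide. The labels name arrays 1 and 3 as replicate 1, with starved RNA in Cy5, and arrays 2 and 4 as replicate 2, with starved RNA in Cy3, so that replicate and dye orientation cannot be told apart.

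Disassembly of the cilium is best known from the return of serum to starved cells. NEDD9, also called HEF1, accumulates at the basal body and helps to activate Aurora A there, and Aurora A phosphorylates HDAC6, which removes acetyl groups from the tubulin of the axoneme. PLK1 acts beside this route, and NEK2 phosphorylates the kinesin KIF24 to keep cilia from growing back. Trichoplein activates Aurora A at the centrioles of growing cells, and NDE1 limits cilium length through the dynein light chain. Most of these proteins are controlled by phosphorylation and by degradation as well as by transcript level, and only transcript level was measured here.

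The transcripts behind the results were read through 60-base probes, of which the first 30 bases are shown with the position given in the array design (mouse build mm8). They show that the probes of Nedd9 read different stretches of its transcript.
Nedd9, brighter probe, chr13:41321457-41321486, minus strand: ttcctttatgaccaactcaagaaatatagt
Nedd9, dimmer probe, chr13:41322610-41322639, minus strand: tttgagaagacaaagaagtggaaggaactg
Aurka, chr2:172047469-172047498, minus strand: tgactcgggggtttctttttctgcatgtta
Nek2, chr1:193533079-193533108, plus strand: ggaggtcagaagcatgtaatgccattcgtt
Of the Nedd9 pair, both on the minus strand, the dimmer probe lies 1153 bases further upstream in the direction of transcription. The whole probes of the other members are at chr7:121960854-121960913 (Plk1, plus strand), chrX:7087267-7087326 (Hdac6, minus strand), chr16:14105951-14106010 (Nde1, plus strand) and chr5:114983000-114983059 (Tchp, plus strand). Whether a probe lies in a coding exon or an untranslated region was not analysed here.

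The 100 bases before the annotated start of the 3 kinase genes and of Nedd9 are shown because several members are known as G2 and M phase genes, whose promoters often hold CCAAT, the box read by NF-Y. Capitals mark CCAAT on the printed strand (RefSeq promoters, GRCm38.p6).
Aurka, chr2:172370571-172370670, minus strand: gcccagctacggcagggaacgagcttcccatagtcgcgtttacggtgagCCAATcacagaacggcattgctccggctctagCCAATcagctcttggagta
Plk1, chr7:122159335-122159434, plus strand: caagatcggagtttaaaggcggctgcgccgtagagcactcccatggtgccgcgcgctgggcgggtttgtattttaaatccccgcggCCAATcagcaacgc
Nek2, chr1:191821373-191821472, plus strand: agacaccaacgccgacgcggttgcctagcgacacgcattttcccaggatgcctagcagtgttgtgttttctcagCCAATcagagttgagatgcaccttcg
Nedd9, chr13:41359002-41359101, minus strand: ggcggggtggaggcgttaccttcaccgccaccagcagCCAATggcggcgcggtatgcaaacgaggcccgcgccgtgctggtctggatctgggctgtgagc

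The other motif searched was TTTGAA, the core of the cell cycle genes homology region, through which MuvB complexes bind. It follows the start in Aurka and Plk1, and the windows below hold it in capitals.
Aurka, chr2:172370521-172370550, minus strand: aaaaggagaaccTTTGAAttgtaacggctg
Plk1, chr7:122159453-122159482, plus strand: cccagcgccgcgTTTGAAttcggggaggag
Both motifs were searched on both strands of the 300 bases from 250 before to 50 after the start, and they share no overlapping letters in these windows. All 7 members had such a promoter. TTTGAA was present in 3 of 7, at base 33 after the start in Aurka, base 31 in Plk1 and base -71 in Hdac6, against 17.9% of 32851 mouse promoters. It was also in 19 of 26 promoters of a list of G2 and M phase genes (73.1%). CCAAT was present in 6 of 7 members, all but Tchp, against 37.4% of all promoters and 84.6% of those of the G2 and M list. These are matches of letters and carry no measurement of binding.

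Each ratio below is starved over unstarved on the log2 scale. A standard error (SE) is limma's moderated one over n = 2 replicates, each the mean of 2 arrays. An adjusted p is limma's over all 16080 genes tested, with Benjamini-Hochberg adjustment, and a gene is called changed where it is below 0.05. Calls were common in these data, with 31.4% of tested genes called, 18.1% higher in starved cells and 13.4% lower. In bulk samples such as these, fewer cells of a type and less RNA per cell cannot be told apart. All 7 members passed the filter for signal above background, and 1 of 7 was called, higher, which is Nedd9. The median ratio over the members was 0.08 beside 0.0053 over all tested genes. At an unadjusted p under 0.05 in limma there were 3 of 7 members, Nedd9, Aurka and Nek2. At least 31.4% of all tested genes passed that threshold too, since every called gene does. The count is therefore not read as a result about the members.

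**Figure D1:**
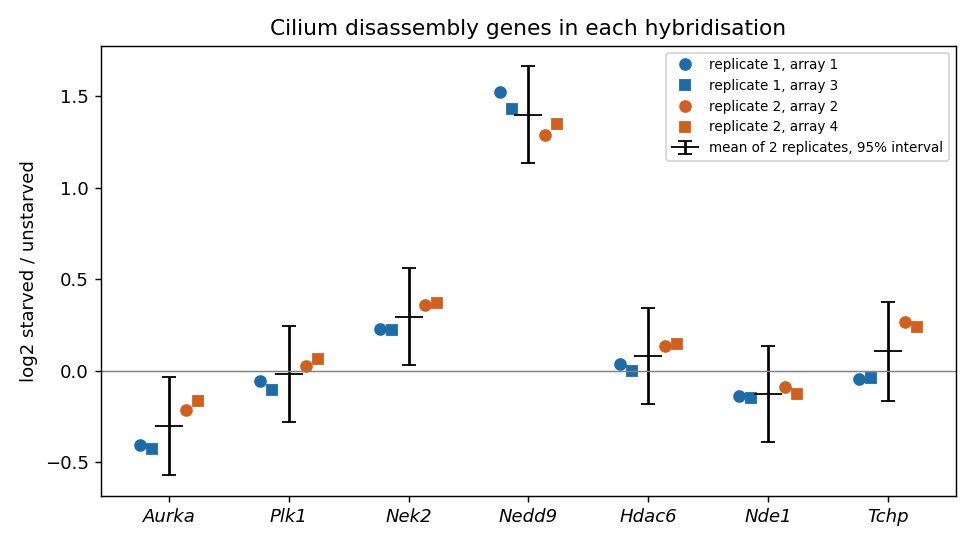
Log2 ratio of starved over unstarved cells (y axis) for each member (x axis). Points are the 4 hybridisations, coloured by replicate, and the black bar is the mean of 2 replicates with its 95% interval. Nedd9 lies between 1.29 and 1.52 in all arrays, while the intervals of Plk1, Hdac6, Nde1 and Tchp include 0.

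Nedd9, the scaffold upstream of Aurora A, was the member that rose in starved cells. Its brighter probe read 8.19, 8.30, 8.18 and 8.37 in unstarved cells on arrays 1 to 4 and 9.71, 9.58, 9.61 and 9.72 in starved cells, as normalised log2 level. Every starved sample lay above every unstarved one, but the 4 samples of a group are 2 arrays of each of 2 replicates. How many of all probes separate in this way was not counted. The ratio was 1.40 ± 0.12 (SE, n = 2), a 2.63-fold rise, with a 95% interval of 1.13 to 1.66 and an adjusted p of 3.14e-07. It was 1.48 in replicate 1 and 1.32 in replicate 2, and 98.2% of the tested genes had a smaller ratio in absolute size.

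The dimmer Nedd9 probe also read higher in starved cells. It gave 7.11, 7.03, 7.03 and 6.96 in unstarved and 7.82, 7.90, 7.90 and 7.91 in starved cells, again without overlap. It was well above background on 4 of 4 starved arrays but on only 1 of 4 unstarved arrays. It therefore entered the probe fit through the starved group alone, and its unstarved level was mostly not measured. Its ratio is given as a description with no test, and it moved with the background correction, from 0.85 as processed here to 1.11 with a smaller normexp offset of 10 and 1.77 with Agilent's processed signals. The brighter probe, well above background on all 4 arrays of both groups, gave 1.53 and 1.71 with the latter settings. The Nedd9 call was lost when arrays were centred on their median without loess normalization (1.38, adjusted p = 0.0756), a setting in which 1.55% of all genes were called. Over all 16 alternatives its ratio stayed between 1.12 and 1.71, and the adjusted p between 9.86e-16 and 0.0756.

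**Figure D2:**
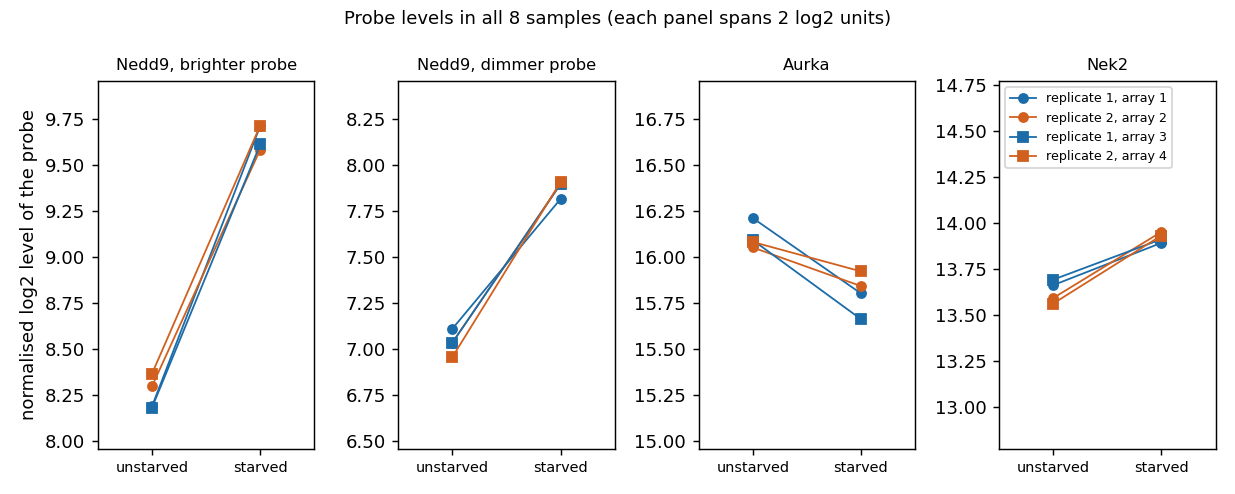
Normalised log2 level (y axis) of the probes of Nedd9, Aurka and Nek2 in unstarved and starved cells (x axis). Lines join the 2 samples of a hybridisation, and each panel spans the same 2 log2 units. Plk1, Hdac6, Nde1 and Tchp, whose levels overlap between groups, are not drawn. Groups do not overlap in any of the panels drawn, but points of a group are 2 arrays of each of 2 replicates. The share of all probes that separate so was not counted. The dimmer Nedd9 probe was well above background on 1 of 4 unstarved arrays.

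Among the 3 genes closest to Nedd9 in their 4 array ratios, by Euclidean distance, were Ncmap (distance 0.0753, ratio 1.39) and Lss (distance 0.114, ratio 1.36). Ncmap encodes a membrane protein of myelin, and Lss the lanosterol synthase of cholesterol synthesis. Among the CAS scaffolds, the family of Nedd9, 3 of 4 genes were tested and Nedd9 alone was called. Bcar1, which encodes p130Cas, had a ratio of -0.10 ± 0.14 (SE, n = 2), and Efs had -0.08 ± 0.12 (SE, n = 2). Cass4 was not well above background on enough arrays of either group to be tested. Whether Nedd9 differed from the other CAS genes was not tested.

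Aurka, the kinase that NEDD9 helps to activate, gave 16.21, 16.05, 16.09 and 16.08 in unstarved cells and 15.80, 15.84, 15.66 and 15.92 in starved cells. The starved samples all lay below the unstarved ones, with the share of all probes that separate so not counted. The ratio was -0.30 ± 0.13 (SE, n = 2), or 1.23-fold more in unstarved cells, with a 95% interval of -0.57 to -0.04 and an unadjusted p of 0.0289. It did not pass adjustment (adjusted p = 0.0797), and 63.2% of tested genes had a smaller absolute ratio. The replicates differed in size, at -0.42 in replicate 1 and -0.19 in replicate 2.

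The call on Aurka depended on how arrays were treated. Without the pairing within a hybridisation (no replicate block) it was called, at adjusted p = 0.0404. With median centring its ratio was -0.63 with an adjusted p of 0.9998. In its family, 0 of 3 Aurora kinases were called by limma, and the 1 with an unadjusted p under 0.05 was Aurka itself. Aurkb, the chromosomal passenger kinase, had a ratio of 0.15 ± 0.12 (SE, n = 2), and Aurkc, best known from meiosis, had -0.10 ± 0.12 (SE, n = 2). Aurkc was well above background on 3 of 4 starved arrays, so it passed the filter through the unstarved group alone.

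Of the activators and partners of Aurora A, 9 of 10 were tested, 0 were called higher and 2 lower, with a median of -0.07. Ajuba, a LIM protein that helps Aurora A to activate, fell by 0.41 (adjusted p = 0.0303), and its replicates were at -0.64 and -0.18. Calm3, a calmodulin gene, fell by 0.41 (adjusted p = 0.0205), a call that ended when all probes of the gene were averaged (adjusted p = 0.0579). Tpx2, which targets Aurora A to the spindle, had a ratio of -0.21 and Bora, a cofactor of Aurora A towards PLK1, had -0.05. Pifo was not above background on any array.

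Hdac6, the tubulin deacetylase downstream of Aurora A, gave array ratios of 0.04, 0.13, -0.0018 and 0.15. Its levels ran from 13.98 to 14.12 in unstarved and from 14.08 to 14.27 in starved cells and overlapped. The ratio was 0.08 ± 0.12 (SE, n = 2), with an interval of -0.18 to 0.34 and an adjusted p of 0.672, and it turned to -0.11 with median centring. In the HDAC family 10 of 11 genes were tested, and 2 were called higher and 1 lower. Hdac5, a class IIa deacetylase, rose by 1.15 (adjusted p = 2.38e-06), and Hdac11 rose by 1.08 (adjusted p = 6.32e-06). Hdac2, a nuclear class I enzyme, fell by 0.40 (adjusted p = 0.0229), and Hdac9 was not above background with any of its probes.

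Tubulin acetylation depends on the acetylase ATAT1 as well as on HDAC6 and SIRT2, and a list of these with HDAC6 substrates had 7 of 7 genes tested. In it 0 were called higher and 2 lower, with a median of -0.23. Tuba1a, an alpha-tubulin gene, fell by 1.31 (adjusted p = 5.74e-07), in both replicates by a like amount (-1.34 and -1.28). Hsp90aa1, a chaperone deacetylated by HDAC6, fell by 0.38 (adjusted p = 0.0325), which did not pass with Agilent's processed signals (adjusted p = 0.0832). The enzymes themselves were not called. Atat1 had a ratio of 0.23 and Sirt2 one of 0.22. The alpha-tubulin genes are near copies of each other, and probes may not separate them.

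Plk1, the mitotic kinase, gave array ratios of -0.05, 0.02, -0.10 and 0.07. Its levels were between 15.80 and 15.87 in unstarved and between 15.72 and 15.93 in starved cells, and the groups overlapped. The ratio was -0.02 ± 0.12 (SE, n = 2), with an interval of -0.28 to 0.25 and an adjusted p of 0.935, and 4.22% of the tested genes had a smaller one. The sign of a ratio this near 0 turned with Agilent's processed signals and with the deposited value table (0.0059 in each), and with median centring it was -0.34. It was called in 0 of 16 alternatives.

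Of 5 Polo-like kinases tested, 1 was called higher and 1 lower. Plk2, an early response kinase that acts on centriole duplication, fell by 1.05 (adjusted p = 3.21e-05), and Plk3, a stress response kinase, rose by 0.48 (adjusted p = 0.0124). Plk4, the starter of centriole duplication, had a ratio of -0.12, and Plk5 one of 0.19, neither of them called. Plk5 was well above background on 3 of 4 unstarved arrays, so it passed the filter through the starved group alone. Whether the family members differed from Plk1 was not tested.

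In a list of genes around PLK1 in disassembly, 8 of 8 were tested, with 2 called higher, 1 lower and a median of 0.11. Kiz, a PLK1 substrate of the spindle pole, rose by 0.79 (adjusted p = 0.000130), with 0.77 and 0.81 in the replicates. Dvl2, the dishevelled protein that joins WNT5A signalling to PLK1, rose by 0.70 (adjusted p = 0.00204), unevenly at 0.34 and 1.06. Wnt5a, the 1 counted as lower, was well above background on 0 of 4 starved arrays and on 4 of 4 unstarved arrays. It was at least 1.28-fold lower with starvation. It passed the filter through the unstarved group alone, so this is given as a description with no test. Its call also ended with the replicate as a random block. The bound is the mean level of the brighter group over the higher, per array, of the dim probe's own level and the lowest level well above background. Pcm1, a centriolar satellite protein that PLK1 binds, had a ratio of 0.22.

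Nek2, the kinase that splits centrosomes, read 13.66, 13.59, 13.69 and 13.56 in unstarved cells and 13.89, 13.95, 13.91 and 13.93 in starved cells. All starved samples were above the unstarved ones, with the share of all probes that separate so again not counted. The ratio was 0.30 ± 0.12 (SE, n = 2), 1.23-fold, with an interval of 0.03 to 0.56 and an unadjusted p of 0.0301. It did not pass adjustment (adjusted p = 0.0821), and 62.3% of tested genes had a smaller absolute ratio. It was called without the replicate block (adjusted p = 0.0366) and with the replicate as a random block (adjusted p = 0.0302), and its ratio was 0.13 with median centring.

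The NEK family had 9 of 11 genes tested, with 3 called higher, 1 lower and a median of 0.27. Nek8, which sits in the inversin compartment of the cilium, rose by 0.99 (adjusted p = 1.26e-05). Nek9, an activator of NEK6 and NEK7 in mitosis, rose by 0.58 (adjusted p = 0.00183). Nek5, counted among those called higher, was well above background on 4 of 4 starved arrays and on 0 of 4 unstarved arrays. Starved cells had at least 1.59-fold higher signal. It passed the filter through the starved group alone, so this is given as a description with no test. Nek6, a mitotic kinase, fell by 0.40 (adjusted p = 0.0196). Nek11 was not above background on any array, and Nek10 is not a name on this array.

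Of the NEK2 substrates and centriole linker genes, 8 were tested, 2 called higher and 1 lower, with a median of 0.19. Lrrc45 rose by 0.38 (adjusted p = 0.0321) and Crocc, which encodes the linker filament rootletin, rose by 0.35 (adjusted p = 0.0379). Both calls ended with Agilent's processed signals (adjusted p = 0.0759 and 0.0665). Kif24, the kinesin through which NEK2 acts on cilia, fell by 0.34 (adjusted p = 0.0475), but 1 of its 2 probes had the opposite sign. The mean of its probes was -0.13 (adjusted p = 0.409), and the call also ended without array 3 (adjusted p = 0.0574) or array 4 (adjusted p = 0.0642). Cep97 and Ccp110, which cap the mother centriole, had ratios of 0.32 and 0.17 and were not called. For Cep97, 1 of 3 tested probes had the opposite sign.

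**Figure D3:**
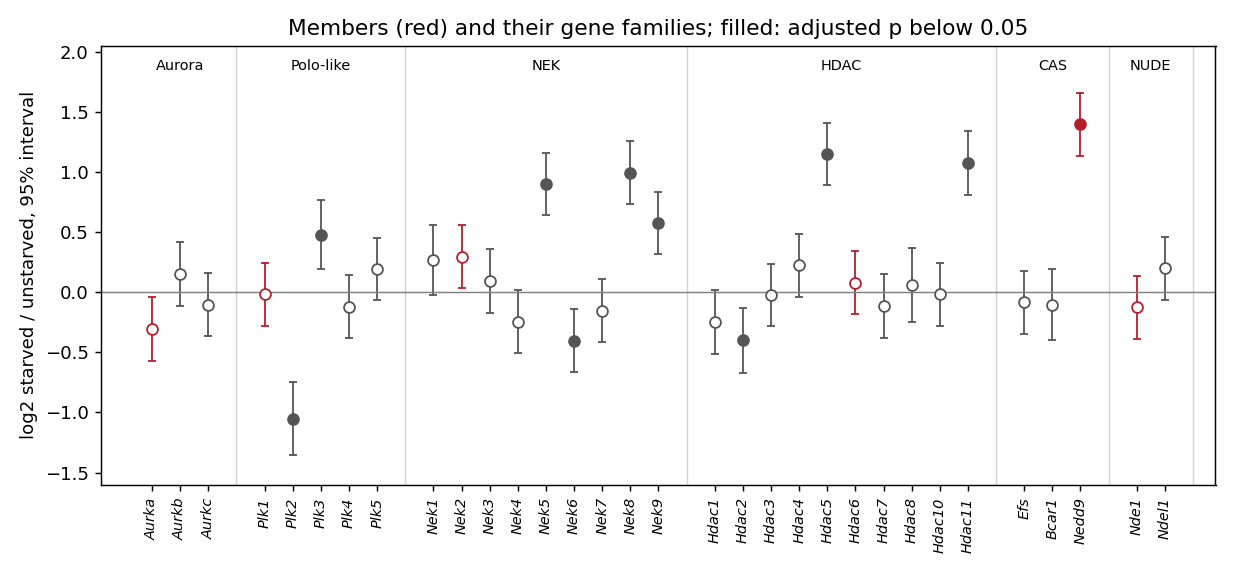
Log2 ratio of starved over unstarved cells (y axis) with its 95% interval for every tested gene of the members' families (x axis). Members are red, and filled points have an adjusted p below 0.05. Nedd9, Hdac5, Hdac11 and Nek8 lie highest and Plk2 lowest. For Nek5 the fitted ratio is drawn, though only a lower bound is known.

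Tchp had array ratios of -0.05, 0.27, -0.04 and 0.24, so that replicate 1 was at -0.04 and replicate 2 at 0.25. Levels overlapped, from 12.74 to 12.85 in unstarved and from 12.80 to 13.01 in starved cells. The mean was 0.11 ± 0.13 (SE, n = 2), with an interval of -0.17 to 0.38 and an adjusted p of 0.575, and it was -0.0096 with median centring. Replicates carried opposite dyes, and the part of the dye in this spread cannot be told apart from that of the replicate.

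Trichoplein is removed before cilia form through the CUL3 ligase with its adaptor KCTD17, and 7 of 7 genes of its turnover were tested. In that list 0 were called higher and 1 lower, with a median of 0.08. Kctd17 fell by 0.60 (adjusted p = 0.00222), with -0.77 and -0.42 in the replicates. Cul3 had a ratio of 0.15 and Usp8, the deubiquitinase that protects trichoplein, had 0.04.

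Nde1 had array ratios of -0.14, -0.09, -0.15 and -0.13, below 0 on all 4 arrays. Its levels were 13.97 to 14.13 in unstarved and 13.85 to 13.99 in starved cells and overlapped. The mean was -0.13 ± 0.12 (SE, n = 2), with an interval of -0.39 to 0.13 and an adjusted p of 0.478. Its paralogue Ndel1 had a ratio of 0.20 ± 0.12 (SE, n = 2). In this family of 2 genes, 0 were called and 0 had an unadjusted p under 0.05 in limma.

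The partners and turnover genes of NDE1 had 9 tested, 1 called higher and 2 lower, with a median of 0.09. CDK5 phosphorylates NDE1 and marks it for FBXW7. Cdk5 rose by 0.42 (adjusted p = 0.0259), while Cdk5r1, its activator p35, fell by 0.57 (adjusted p = 0.00316). The Cdk5 call ended with Agilent's processed signals (adjusted p = 0.0591). Dynll1, the dynein light chain through which NDE1 acts, fell by 0.42 (adjusted p = 0.0449), with replicates at -0.07 and -0.76. That call ended without array 4 (adjusted p = 0.0508) and with the processed signals (adjusted p = 0.104). Fbxw7 had a ratio of -0.06, with 1 of its 2 tested probes of opposite sign.

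Among other disassembly factors, 8 of 11 were tested, with 0 called higher and 1 lower, which is Kif24 again, and a median of 0.18. Igf1r, the receptor through which IGF1 starts resorption, had a ratio of 0.22, but 2 of its 4 tested probes had the opposite sign. Gsk3b had 0.0050. Kif2a, the depolymerising kinesin that PLK1 acts on, had 0.0064, with 1 of its 2 tested probes of opposite sign.

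Aurka, Plk1 and Nek2 peak in G2 and M phase in cycling cells, and a list of 30 further such genes was measured beside them. Of the 30, 1 was called higher, 2 were called lower and 27 were not called, with a median of -0.06. Over all tested genes 31.4% were called. At an unadjusted p under 0.05 in limma there were 8 of the 30. At least 31.4% of all tested genes passed that threshold, since every called gene does. Mki67, which encodes the Ki-67 antigen, rose by 0.51 (adjusted p = 0.00529). Cenpa, the centromeric histone, fell by 0.44 (adjusted p = 0.0122), and Ube2c, a ubiquitin carrier of mitotic exit, fell by 0.34 (adjusted p = 0.0469). The Ube2c call ended without array 4 (adjusted p = 0.0502) and with the processed signals (adjusted p = 0.0672). Ccnb1, cyclin B1, had a ratio of -0.31 and Ccnb2, cyclin B2, one of 0.28. The ratios of Aurka, Plk1 and Nek2 lie within the range of this list, which runs from -0.44 to 0.51.

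Markers of the line and of other cell types were set beside the members. Of 14 collecting duct markers 11 were tested, with 5 called higher, among them Scnn1g (2.30), Avpr2 (1.11) and Cdh1 (0.67), and 1 lower, Krt8 (-0.64). The median of those tested was -0.07, and Aqp2 (-0.19), Aqp3 (-0.21), Scnn1a (-0.07), Gata3 (-0.18) and Krt18 (-0.21) were not called. Elf5 and Scnn1b were above background on no array. Avpr2 was well above background on only 1 of 4 unstarved arrays, so the size of its ratio rests on a level mostly not measured, and it was not called with the replicate as a random block (adjusted p = 0.155). Summed levels, on the linear scale, take in every listed gene, those at background too, so that for fibroblast and endothelial markers most of the genes summed were not measured above background. A linear sum also gives most weight to the brightest probes, so it need not follow the count of calls. The summed level of the collecting duct list was 433500 to 489100 in unstarved and 323200 to 425400 in starved cells. Of 8 leukocyte markers 6 were tested and 3 called higher, Aif1 (1.49), Csf1r (1.44) and Cd14 (0.88), with Ptprc lower (-0.50, well above background on 2 of 4 starved arrays), and the summed level was 8591 to 8972 in unstarved and 16720 to 19070 in starved cells. The leukocyte markers Cd68 (-0.24) and Cd3e (-0.11) were tested and not called. Itgam and Cd79a were not above background on any array. Fibroblast markers had 3 of 9 tested and 2 called lower, Postn (at least 1.91-fold lower) and Col1a1 (-1.01), with a summed level of 1559 to 1690 in unstarved and 1191 to 1260 in starved cells and Dcn, Lum and Pdgfra at background. Endothelial markers had 2 of 9 tested, both called lower, Flt1 (-1.02) and Eng (-0.53), with 3064 to 3264 in unstarved and 1900 to 2143 in starved cells and Pecam1, Cdh5 and Kdr at background. Hsd11b2 (0.35), also counted as called higher, was well above background on only 1 of 4 unstarved arrays. Avpr2, Hsd11b2, Postn and Ptprc passed the filter only through the group in which they read higher. Their calls are counted, but their differences are descriptions and not tests. The part of these marker differences in the values of the members was not tested.

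How many members were called followed how the arrays were grouped. The text of the series speaks of a dye swap within each pair, which the labels do not show. With arrays 1 and 2 as a pair and arrays 3 and 4 as the other, 6 of 7 members were called, all but Plk1, and so were 88.9% of all genes. By the labels each such pair holds 1 array of each replicate, so the difference between replicates averages out. The spread left is that of repeat arrays, and these calls do not rest on replicates. Ratios are unchanged under this pairing by construction. Arrays of one replicate correlated at 0.991 over all genes and arrays of different replicates at 0.824 to 0.830. Of the 41 genes beside the members that the naming rule gives, 38 were not called with median centring, and all 41 kept their sign.

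**Figure D4:**
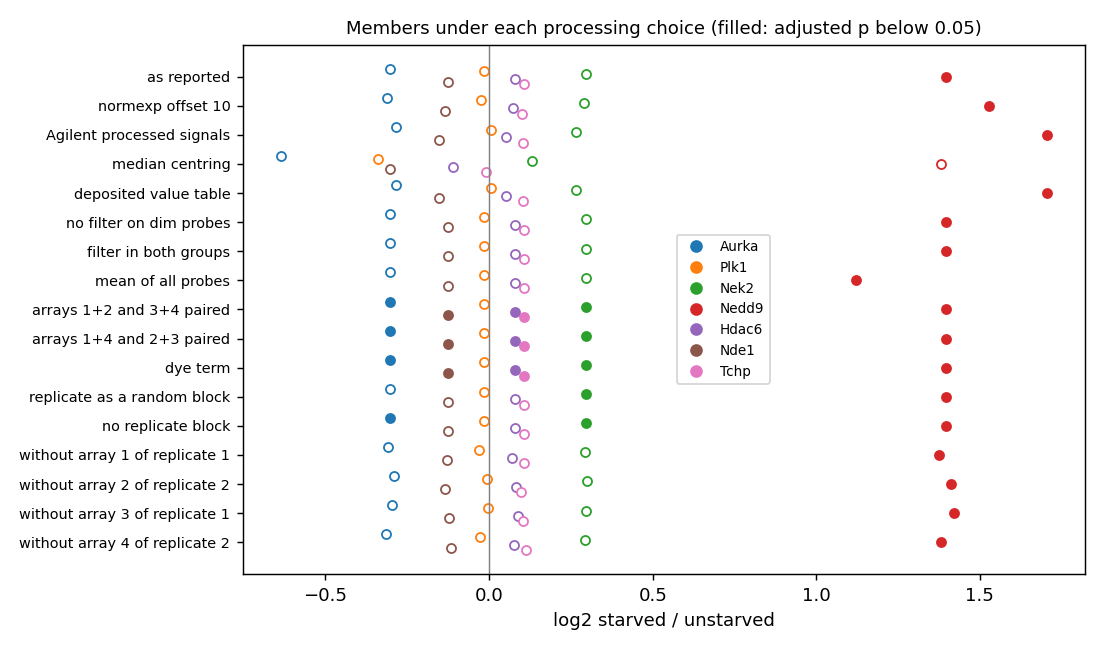
Log2 ratio of starved over unstarved cells (x axis) for each member under the reported processing and 16 alternatives (y axis), with filled points at an adjusted p below 0.05. Nedd9 is filled in all settings but median centring, and Plk1 in none.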

How the data were processed

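RNA of 8 IMCD3 samples was read on 4 Agilent 2-colour arrays. The deposited intensity values are the mean signal and median local background of each spot, as written by the scanner software (Agilent Feature Extraction 9.5.3.1, per the submitters' processing notes). The deposited processed intensity and the deposited value table, whose scaling the sources used here do not give, served as alternatives. No deposited log2 values were used, and log2 ratios were computed here. Both files of each hybridisation were identical (4 of 4), so only the channel of a sample's dye label was read.

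In limma 3.58.1 (R 4.3.3), signals were corrected with normexp (offset 50), and loess was run within arrays with control and flagged spots at weight 0. Of 45018 spots, 1639 were controls, 583 were flagged over all arrays and 0 were saturated. Spots were averaged per probe (41174 probes). Probes well above background on all 4 arrays of at least 1 group were kept (24610), and the brightest stood for its gene. Names came from accessions (24375 probes), symbols (6301), synonyms (2426) or the array alone (8072), through a RefSeq gene table (GRCm38.p6). Levels are single channels after loess and Aquantile normalization.

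Array ratios were averaged within each replicate, and the 2 replicate means were fitted with lmFit and eBayes, two-sided (14.98 prior degrees of freedom, prior SD 0.18). Only this fit was tested on simulated data, made of independent ratios with a smaller share of changed genes than was called here. Background correction, loess, dyes, filtering, probe choice and averaging of arrays were not part of that simulation. The number of replicates limits the precision, and all arrays share 1 slide. The pair in each ratio is the hybridised pair. After splitting channels, deviations of same-numbered samples correlated at -0.297, and these samples carry opposite dyes. Members and lists were chosen with earlier results of these data known. Named are all members, up to 4 called genes per list with the largest ratios, the 3 genes nearest to a called member (1 is not reported here), and uncalled or dim genes picked afterwards for their role. Alternatives covered background correction, centring, filters, probes, pairing, dye, block and single arrays.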

Additional observations from a re-analysis of the deposited data

How the results depend on the processing

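Of 5052 genes called (2905 higher, 2147 lower), 249 were called with median centring (133 higher, 116 lower). With arrays 1 and 2 paired against 3 and 4 the count was 14298 (7341 higher, 6957 lower), with arrays 1 and 4 against 2 and 3 it was 14105 (7253 higher, 6852 lower), and with a dye term 14211 (7333 higher, 6878 lower). The median of all genes moved to -0.08 with median centring. Of the members, 1 was called in the report, 0 with median centring, and 6 (4 higher, 2 lower) with each of those pairings and with the dye term. With the replicate as a random block 2 were called, both higher. Without the replicate block 3 members were called (2 higher, 1 lower), and 5862 genes in all. An alternative chosen after seeing the data crossed the replicate numbers of the block, so that samples of the same dye were paired, and called 7606 genes (4211 higher, 3395 lower) and 3 members (2 higher, 1 lower). Signs turned for Plk1 (0.0059 with Agilent's processed signals and with the deposited table) and, with median centring, for Hdac6 (-0.11) and Tchp (-0.0096). Leaving out single arrays turned no sign of a member and changed no member's call. By the labels, the other pairings and the dye term take out the difference between replicates, so their spread is that of repeat arrays alone. Why the remaining settings differ was not tested. Leaving out a whole replicate gives the ratio of the other alone, without a test, since 1 replicate leaves no residual degrees of freedom. Precision is limited by 2 replicates, each of 1 dye orientation.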
